A study of Mus musculus with 3 samples.

Results

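Transcripts of 9 CXC chemokine genes, Cxcl1, Cxcl2, Cxcl9, Cxcl10, Cxcl12, Cxcl13, Cxcl14, Cxcl15 and Cxcl16, were followed across the cell types of the mouse lung. The genes were taken by name, and all 9 were present in the deposited table of cells and in that of nuclei, which shared 21507 genes. Lungs of wild type C57Bl/6J mice were profiled with the 10x Chromium 3' v3 assay, in which each droplet tags the RNA of a cell or nucleus with its own barcode and counts RNA molecules by unique molecular identifiers (UMIs). The first group was 1 library of whole cells, freshly isolated by warm enzymatic and mechanical dissociation and cleared of dead cells on a gradient. The second was 2 libraries of nuclei, released in cold lysis buffer from snap-frozen lung of adult mice. The labels give no animal, sex or treatment, and an age ("adult") for the nuclei only. The series set whole cells against nuclei, so preparation, fresh against frozen tissue and library cannot be told apart in any difference between them.

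Chemokines are small secreted proteins that direct the movement of leukocytes through receptors on the target cell. Cxcl1 and Cxcl2 act on Cxcr2 and recruit neutrophils; Cxcl15, named lungkine, is a neutrophil attractant made by the mouse airway and alveolar epithelium. Cxcl9 and Cxcl10 are interferon-induced ligands of Cxcr3, which activated T cells and NK cells carry. Cxcl13 draws B cells through Cxcr5 and organises lymphoid follicles. Cxcl12 acts on Cxcr4, is scavenged by Ackr3, and is made constitutively by stroma and endothelium. Cxcl14 is a constitutive chemokine of epithelia and fibroblasts. Cxcl16 is anchored in the membrane, binds Cxcr6, and can be shed by the protease Adam10. Cxcl1 and Cxcl2 are textbook targets of NF-kB, the transcription factor activated by inflammatory and stress signals.

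Stretches just upstream of 3 genes are shown, because Cxcl1 and Cxcl2 share 1 spelling of a motif that few mouse promoters hold. Cxcl10 carries a motif of the interferon response. They come from the RefSeq promoter table (GRCm38.p6), read 5′ to 3′ on the gene's strand, with motif matches in capitals.
Cxcl1 (chr5:90891091-90891240, plus strand): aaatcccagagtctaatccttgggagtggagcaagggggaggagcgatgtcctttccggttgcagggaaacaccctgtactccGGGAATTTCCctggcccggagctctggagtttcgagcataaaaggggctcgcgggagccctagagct
Cxcl2 (chr5:90903721-90903870, plus strand): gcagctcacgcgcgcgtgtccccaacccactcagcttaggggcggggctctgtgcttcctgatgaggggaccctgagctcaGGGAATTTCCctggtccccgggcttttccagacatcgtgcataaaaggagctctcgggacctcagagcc
Cxcl10 (chr5:92348890-92349109, minus strand): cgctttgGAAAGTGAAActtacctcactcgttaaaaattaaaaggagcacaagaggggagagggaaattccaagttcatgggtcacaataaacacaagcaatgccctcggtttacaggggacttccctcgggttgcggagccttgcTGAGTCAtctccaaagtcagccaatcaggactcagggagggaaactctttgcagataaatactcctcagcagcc
In Cxcl1 and Cxcl2 the capitals mark the NF-kB motif, searched as GGGA and TTTCC set 1 base apart, on both strands of the 250 bases before the start. It lay at bases -71 to -62 of Cxcl1 and -97 to -88 of Cxcl2, and was found in 117 of the table's 32817 promoters (0.357%). In Cxcl10 they mark an interferon-stimulated response element, searched as GAAA and GAAA set 2 bases apart, at -213 to -204 (974 promoters, 2.97%), and an AP-1 motif, TGANTCA, at -74 to -68 (2216 promoters, 6.75%). The interferon element was also matched in Cxcl14 at -172 to -163. Positions count back from the RefSeq start, and the stretches shown for Cxcl1 and Cxcl2 stop 4 and 28 bases short of it. The table held 8 of the 9 genes, the exception being Cxcl16, and the other 4 had no match to these letters in the window. A match describes the letters only. Just 1 spelling of the NF-kB motif was searched, so 0.357% does not count sites of other spellings. Cxcl10 and the genes without a match may hold such sites.

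By the GENCODE vM21 annotation (GRCm38), 6 of the genes lie on chromosome 5. Cxcl15 (90794534 to 90803067) is followed by Cxcl1 (90891241 to 90893115) after 88173 bases and by Cxcl2 (90903871 to 90905938) after a further 10755 bases, all on the plus strand. Cxcl9 (92321347 to 92328079) and Cxcl10 (92346638 to 92348889) lie on the minus strand with 18558 bases between them, and Cxcl13 (95956951 to 95961068) lies on the plus strand. Cxcl12 is on chromosome 6 (117168535 to 117181367, plus), Cxcl14 on chromosome 13 (56288643 to 56296551, minus) and Cxcl16 on chromosome 11 (70453983 to 70459984, minus). Each is protein-coding, with 3 to 5 exons. Art3, Gm24322 and Zmynd15 overlap Cxcl10, Cxcl15 and Cxcl16 on the opposite strand, and since the use of strand in counting is not given in the sources used here, a share of their reads may be assigned to the wrong gene.

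The cell library held 35962788 UMI counts in 11934 barcodes (median 2864 per barcode), and the nucleus libraries held 28062109 in 6849 (median 4152) and 27148272 in 9806 (median 2521). The libraries shared 21 to 24 barcodes pairwise. Each table was clustered without the 9 genes, and clusters were named from marker genes, epithelial, endothelial, stromal and immune markers of lung among them. Neutrophils, basophils or mast cells, classical monocytes, group 2 innate lymphoid cells (ILC2), migratory dendritic cells and plasmacytoid dendritic cells were named in the cell library only; club and arterial classes were named among nuclei only. A cluster of 36 and 17 nuclei that met no name was led by genes that also led the ILC2 clusters of cells, Il1rl1, Stab2 and Cntn1 among them. The ciliated class of the cell library was also high in club genes (Scgb1a1 at 6741 CPM, the counts-per-million scale used throughout). Clusters with markers of 2 classes held 1602 cells and 3 and 49 nuclei and entered no class. B and T cells, which are not known as main sources of these genes, served as the background, with 1043 cells and 362 and 698 nuclei and median depths of 2422, 2625 and 1268.5 UMIs. The classes whose shares with a UMI are given below had median depths of 2703.5 (neutrophils) to 3627 (migratory dendritic cells) in cells, and of 2234 to 4490 in nuclei. Poisson and binomial intervals (exact, 95%) cover counting error only.

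Over whole libraries, 6 of the 9 genes were higher in cells than in nuclei by edgeR's quasi-likelihood test with Benjamini-Hochberg adjustment, and 3, Cxcl12, Cxcl15 and Cxcl16, did not pass. Among all 19806 genes that entered the test, 16.4% passed as higher and 8.42% as lower, with 6 and 0 among the chemokines, and the median log2 fold change was -0.03. The p-values measure only the spread between these libraries, which comes from the 2 nucleus libraries, because the cell library has no replicate and no label ties libraries to separate animals. In such sums, fewer cells of a type and less RNA per cell cannot be told apart. Cxcl1 and Cxcl2 passed the low-count filter through the cell library alone, so their direction here is not independent evidence.

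**Figure D1:**
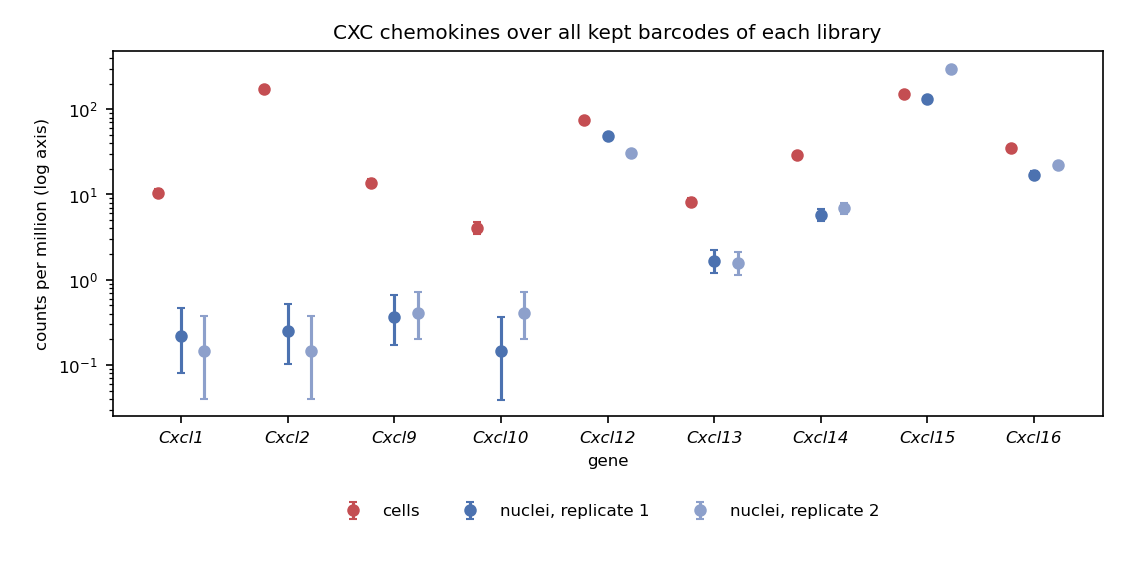
CPM of each CXC chemokine (log axis) in the cell library and in both nucleus libraries, with exact 95% Poisson intervals for counting error. Cxcl2 sits at 175 CPM in cells against 0.252 and 0.147 CPM in nuclei, while Cxcl15 in cells (152 CPM) lies between the nucleus libraries (132 and 299 CPM).

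Cxcl2 had 6280 counts in cells (175 CPM), against 7 and 4 counts in nuclei (0.252 and 0.147 CPM), a log2 fold change of 9.90 (SE 0.460, edgeR adjusted p = 0.00250). The SE, here and below, is the absolute log2 fold change divided by the square root of edgeR's quasi-likelihood F statistic. It is derived from the test and holds no spread between cell libraries. Cxcl1 had 377 counts in cells (10.5 CPM), against 6 and 4 in nuclei (0.216 and 0.147 CPM), a log2 fold change of 5.98 (SE 0.609, edgeR adjusted p = 0.00441). Neither neutrophil ligand had more than 7 counts in a library of nuclei, so both entered the test through the cell library alone. Cxcl9 had 497 counts in cells and 10 and 11 in nuclei (log2 fold change 5.33, SE 0.511, edgeR adjusted p = 0.00437), and Cxcl10 had 147 counts in cells and 4 and 11 in nuclei (4.07, SE 0.754, adjusted p = 0.0141).

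Cxcl13 and Cxcl14 were higher in cells by smaller folds. Cxcl13 had 294 counts in cells (8.18 CPM) and 46 and 43 in nuclei (1.66 and 1.58 CPM), with a log2 fold change of 2.497 (SE 0.499, edgeR adjusted p = 0.0176). Cxcl14 had 1039 counts in cells (28.9 CPM) and 161 and 186 in nuclei (5.81 and 6.85 CPM), with 2.36 (SE 0.340, adjusted p = 0.00723). Cxcl12 had 74.6 CPM in cells and 48.8 and 30.6 CPM in nuclei (log2 fold change 1.06, SE 0.403, edgeR adjusted p = 0.102), and Cxcl16 had 35.2 CPM in cells and 17.02 and 21.997 CPM in nuclei (1.03, SE 0.313, adjusted p = 0.0583). Without mixed and unnamed clusters Cxcl16 passed, at 1.10 and an edgeR adjusted p of 0.0490. Cxcl15 had 152 CPM in cells and 132 and 299 CPM in nuclei, so the nucleus libraries lay on both sides of the cells (-0.31, SE 0.494, edgeR adjusted p = 0.670).

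In cells, the leading class was adventitial fibroblasts for Cxcl1 and Cxcl12, neutrophils for Cxcl2, the Xcr1-type conventional dendritic cells (cDC1) for Cxcl9, plasma cells for Cxcl10, interstitial macrophages for Cxcl13, alveolar fibroblasts for Cxcl14, AT2 cells for Cxcl15 and migratory dendritic cells for Cxcl16. Counting a class as above background where its whole interval lay above that of B and T cells in the same library, 72 pairs of gene and class were above background in cells (26 classes), 9 in nucleus replicate 1 (22 classes) and 7 in nucleus replicate 2 (23 classes). The background held 2736612 UMIs in cells and 1016537 and 1036759 in nuclei. Its intervals therefore differ in width, and these numbers of pairs are not on one scale. In nuclei no class exceeded background for Cxcl1, Cxcl2, Cxcl9 or Cxcl10. Class levels here and below are unscaled CPM within the class, and they are descriptions with no test, because barcodes of a library are not replicates.

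**Figure D2:**
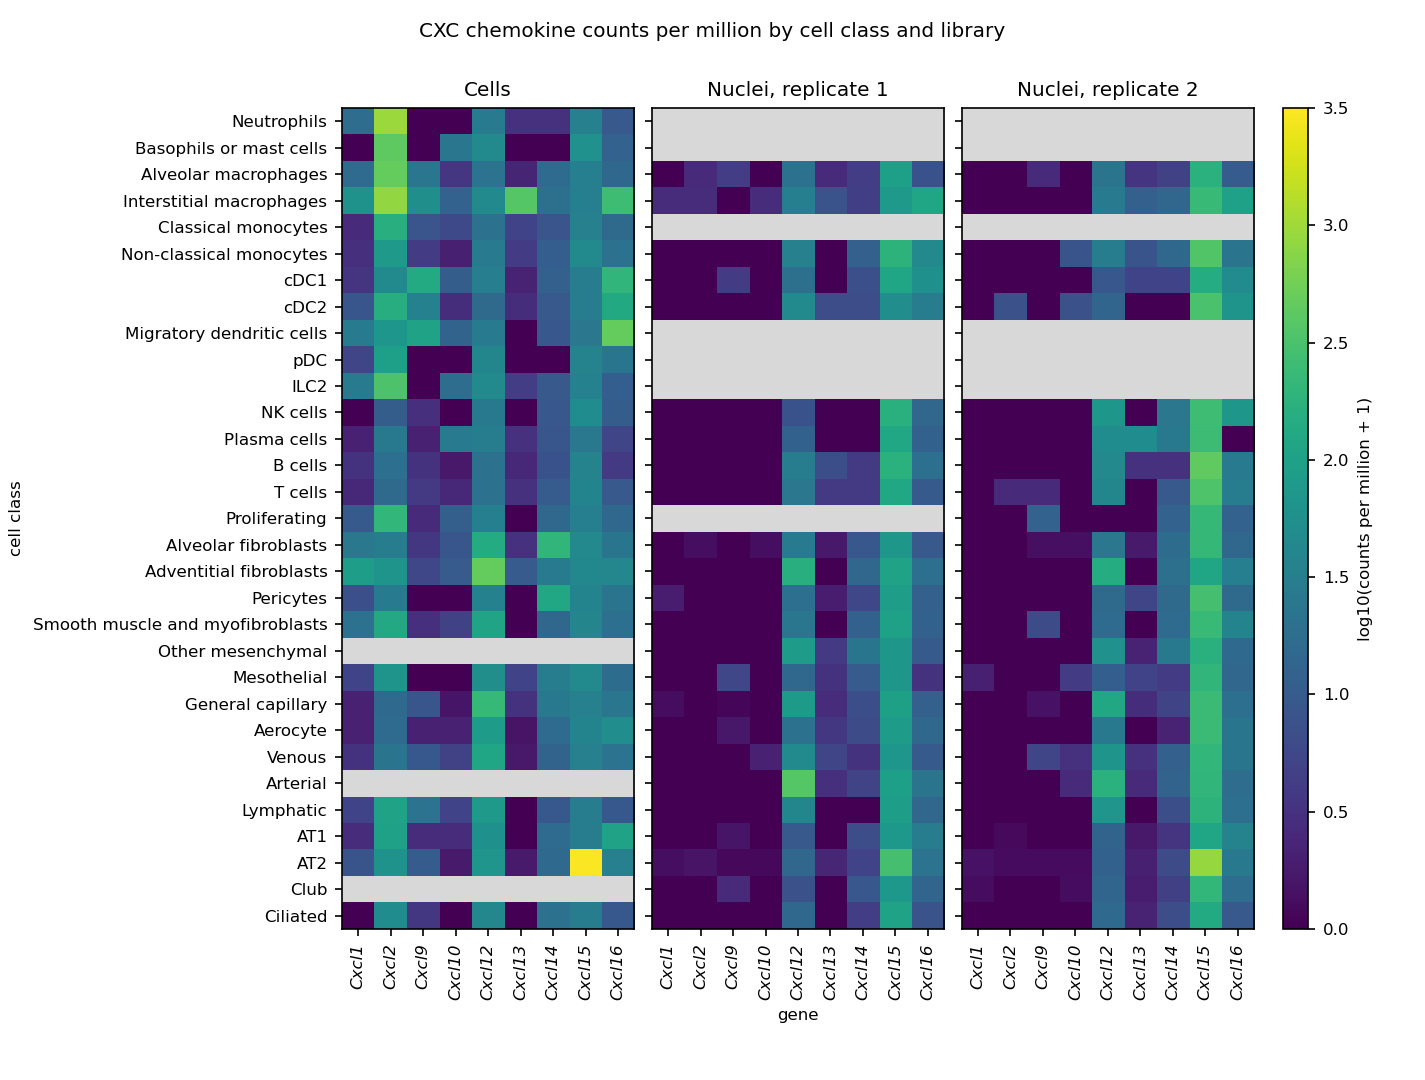
Heat map of log10(CPM + 1) for the 9 genes (columns) in each cell class (rows), for cells and for both nucleus libraries. Grey rows mark classes with fewer than 20 barcodes in that library; bright squares in cells are Cxcl2 in neutrophils and interstitial macrophages, Cxcl12 in adventitial fibroblasts, Cxcl13 in interstitial macrophages, Cxcl15 in AT2 cells and Cxcl16 in migratory dendritic cells.

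Cxcl2 was highest in myeloid cells of the cell library. It reached 939 CPM in neutrophils (95% interval 853 to 1030.9, 441 counts in 162 cells) and 849 CPM in interstitial macrophages (777 to 927, 508 counts in 183 cells). Alveolar macrophages had 472 CPM, and with 3342 counts in 2160 cells they held 53.2% of all Cxcl2 counts of the library. Basophils or mast cells had 426 CPM (37 counts) and ILC2 had 333 CPM (199 counts), against 16.4 CPM in B and T cells (45 counts). Neutrophils and interstitial macrophages did not differ beyond their intervals, and neither did alveolar macrophages and basophils. In all, 19 of 26 classes exceeded background, down to 46.3 CPM in cDC1.

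Shares with a UMI were taken after thinning each barcode to 1000 UMIs, which left out 253 shallower nuclei of replicate 2, 95 of them B and T cells, and no barcode of the other libraries. At that depth, 40.1% of neutrophils had a Cxcl2 UMI (65 of 162, 62.3% unthinned), as did 30.6% of interstitial macrophages (48.6% unthinned) and 23.3% of alveolar macrophages (40.1% unthinned), against 1.34% of B and T cells (3.84% unthinned). In nuclei the same transcript was seen in 1 of 153 alveolar macrophage nuclei of replicate 1 and in 0 of 425 of replicate 2. The counts of Cxcl2 per count of S100a9, a neutrophil granule transcript, were 0.184 in neutrophils, 18.1 in interstitial macrophages, 27.2 in alveolar macrophages and 0.381 in B and T cells. The macrophage ratios lay above those of neutrophils and lymphocytes, and the part of free RNA in these levels was not tested.

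Cxcl1, the chromosomal neighbour of Cxcl2, was highest in fibroblasts and interstitial macrophages. Adventitial fibroblasts, the Pi16- and Dcn-expressing fibroblasts around vessels and airways, had 87.2 CPM (66.2 to 113, 58 counts), and interstitial macrophages had 60.2 CPM (42.2 to 83.3, 36 counts), which overlapped. Alveolar fibroblasts had 24.4 CPM (45 counts) and alveolar macrophages 15.7 CPM (111 counts), against 1.83 CPM in B and T cells (5 counts). Migratory dendritic cells, ILC2, smooth muscle and myofibroblasts, and neutrophils (17.04 CPM from 8 counts) made up the rest of the 8 classes above background. At 1000 UMIs, 6.33% of adventitial fibroblasts (14 of 221, 14.5% unthinned) had a Cxcl1 UMI, against 0.0959% of B and T cells (0.479% unthinned). No class of nuclei held more than 2 Cxcl1 counts.

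The genes were then compared between cells and nuclei of the same class, in the 16 classes with at least 50 barcodes in each library. The share of all tested genes called higher in cells by edgeR was 22.6% in alveolar macrophages, 20% in AT2 cells, 18.8% in cDC1, 15.9% in aerocytes, 15% in adventitial fibroblasts, 14.6% in venous endothelium and 14.4% in AT1 cells. It was 13.7% in mesothelium, 13.5% in T cells, 13% in general capillaries and in ciliated cells, 12% in smooth muscle and myofibroblasts, 11.9% in interstitial macrophages, 11.2% in B cells and 7.21% in pericytes. In alveolar fibroblasts edgeR called 0 of 13956 genes (smallest adjusted p 0.176), where 3551 had an unadjusted p under 0.05 and DESeq2 called 727 higher and 216 lower, so no member could pass in that class.

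Cxcl2 passed the low-count filter in 14 of 16 classes and was higher in cells in 12 of them. In alveolar macrophages it had 3342 counts in cells against 1 and 0 in nuclei, a ratio of 881 (counting interval 158 to 34826) and an edgeR adjusted p of 0.000157. In interstitial macrophages it had 508 counts against 1 and 0 (ratio 802, interval 143 to 31748, edgeR adjusted p = 0.000337). Classes outside the myeloid lineage showed it too. General capillaries had 53 counts in cells and none in nuclei, at least 44.3-fold higher in cells, taking 3 counts over both nucleus libraries as the limit. Ciliated cells (18 counts) were at least 47.4-fold and smooth muscle and myofibroblasts (65 counts) at least 27.4-fold higher. Cxcl2 in general capillaries, at 14.9 CPM, did not exceed the 16.4 CPM of B and T cells in the same library.

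Cxcl1 was tested in 4 classes and was higher in cells in 3 of them. Adventitial fibroblasts had 58 counts in cells and 0 in nuclei (at least 11.1-fold, edgeR adjusted p = 1.43e-05), and alveolar macrophages 111 and 0 (at least 9.76-fold, adjusted p = 0.00493). Alveolar fibroblasts had 45 and 0 counts, at least 42.6-fold more per UMI, with an edgeR adjusted p of 0.176. For Cxcl1, Cxcl2, Cxcl9 and Cxcl10 all tested classes passed the filter through the cell library alone, so these counts are not independent evidence of a direction. DESeq2 called 1 of the 4 Cxcl1 classes and 7 of the 14 Cxcl2 classes higher.

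Cxcl9 was highest in antigen-presenting cells. It had 135 CPM in cDC1 (111 to 163, 111 counts), 103 CPM in migratory dendritic cells (67.1 to 150.4, 26 counts, 14 of them in 1 cell) and 55.2 CPM in interstitial macrophages (33 counts), against 2.56 CPM in B and T cells. cDC1 and migratory dendritic cells did not differ beyond their intervals. The alveolar macrophages held the most counts of any class (162, 32.6% of the library's Cxcl9) at a lower level of 22.9 CPM. At 1000 UMIs, 7.25% of migratory dendritic cells (the same unthinned) and 5.26% of cDC1 (12 of 228, 9.65% unthinned) had a Cxcl9 UMI, against 0.384% of B and T cells (0.671% unthinned). Within cDC1, 111 counts in cells stood against 1 and 0 in nuclei (ratio 76.8, interval 13.5 to 3062, edgeR adjusted p = 1.82e-16), and all 4 tested classes, cDC1, alveolar and interstitial macrophages and general capillaries, were higher in cells. DESeq2 called 2 of the 4.

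Cxcl10, with 147 counts in all cells, was spread over few counts in several classes. Plasma cells led with 26.3 CPM (16.9 to 39.2, 24 counts in 9 cells, 9 of them in 1 cell), followed by ILC2 with 16.7 CPM (10 counts) and interstitial macrophages with 11.7 CPM (7 counts). cDC1 had 9.75 CPM and alveolar fibroblasts 7.59 CPM, against 1.10 CPM in B and T cells from 3 counts. The 7 classes above background overlapped in their intervals except that plasma cells exceeded alveolar fibroblasts. Alveolar fibroblasts were the sole class tested for Cxcl10, with 14 counts in cells and 1 and 1 in nuclei (ratio 19.9, interval 4.56 to 180.1, edgeR adjusted p = 0.176). At clustering resolution 1 it passed in that class as higher in cells.

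Cxcl13 came from interstitial macrophages in whole cells. That class, 183 of 11934 cells, held 228 of the 294 Cxcl13 counts (77.6%) at 381 CPM (333 to 434), against 1.83 CPM in B and T cells. It was the 1 class of 26 above background; adventitial fibroblasts came next with 9.02 CPM (6 counts). At 1000 UMIs, 11.5% of interstitial macrophages (21 of 183, 16.4% unthinned) had a Cxcl13 UMI, against 0.288% of B and T cells (0.479% unthinned). In nuclei, interstitial macrophages had 4 and 4 counts (6.98 and 10.8 CPM) and did not exceed the B and T cells of their library, while 2 counts in 1 of 23 plasma cell nuclei of replicate 2 made 49.9 CPM (6.05 to 180.4). Within interstitial macrophages Cxcl13 was higher in cells by a log2 fold change of 5.67 (SE 0.474, edgeR adjusted p = 0.000534), and DESeq2 also called it. It passed the low-count filter in that class through the cell library alone, so the direction is not independent evidence.

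Cxcl12 was highest in classes of fibroblasts and endothelium, which differed in part between the preparations. In cells, adventitial fibroblasts had 463 CPM (413 to 518, 308 counts), general capillaries, the Gpihbp1-expressing capillary cells, had 220.1 CPM (781 counts), alveolar fibroblasts 142 CPM and venous endothelium 115 CPM. Smooth muscle and myofibroblasts had 111 CPM and aerocytes, the Car4-expressing capillary cells, 81.6 CPM, against 19.7 CPM in B and T cells. Adventitial fibroblasts stood apart from general capillaries and these from all classes below, while alveolar fibroblasts, venous endothelium and smooth muscle overlapped. Clusters of mixed lineage held another 13.4% of Cxcl12 counts.

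In nuclei the highest Cxcl12 class was arterial endothelium, with 371 CPM (354 counts) in replicate 1 and 169.8 CPM (100 counts) in replicate 2, a spread between replicates larger than counting error. Adventitial fibroblasts followed with 156 and 145 CPM and general capillaries with 79.0 and 119 CPM, against 25.6 and 41.5 CPM in B and T cells. Arterial nuclei, adventitial fibroblasts and general capillaries exceeded background in both replicates. Alveolar fibroblasts (27.99 and 23.4 CPM), aerocytes (19.9 and 24.6 CPM) and smooth muscle and myofibroblasts (22.3 and 15.7 CPM) did not, and neither did venous nuclei (45.7 and 63.4 CPM). At 1000 UMIs, 29.9% of adventitial fibroblasts in cells had a Cxcl12 UMI (62.0% unthinned), and 8.93% and 15.7% in nuclei (35.7% and 37.3% unthinned). In B and T cells the share was 1.92% in cells (4.99% unthinned) and 2.21% and 4.15% in nuclei (6.63% and 5.16% unthinned).

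Within classes, Cxcl12 was higher in cells in 8 of the 15 classes tested. The folds ran between a log2 of 1.15 in venous endothelium (SE 0.423, edgeR adjusted p = 0.0365) and 2.498 in smooth muscle and myofibroblasts (SE 0.589, adjusted p = 0.00188). AT2 cells, with 84 counts in cells and 79 and 45 in nuclei, had 2.40 (adjusted p = 3.40e-05), adventitial fibroblasts 1.80 (0.000279) and general capillaries 1.19 (0.0475). The other called classes were AT1 (2.15), mesothelium (2.22) and aerocytes (1.82). AT2 nuclei had 13.5 and 11.3 CPM, AT1 nuclei 8.61 and 12.1 CPM and mesothelial nuclei 13.7 and 10.2 CPM. All lay below the B and T nuclei of their library, at 25.6 and 41.5 CPM. Mesothelium passed the low-count filter through the cell library alone, so its direction is not independent evidence. In B cells and T cells the log2 fold changes were -0.56 and -0.28 and did not pass. General capillaries also fell short of the threshold under median-of-ratios scaling, and DESeq2 called 2 of the 15 classes higher.

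Cxcl14 was highest in alveolar fibroblasts, the Tcf21- and Npnt-expressing fibroblasts of the alveolar wall, with 202 CPM in cells (182 to 224, 373 counts in 636 cells), and next in pericytes with 122 CPM (87.0 to 166, 40 counts). Adventitial fibroblasts (27.1 CPM), general capillaries (25.4 CPM) and alveolar macrophages (15.5 CPM) formed a lower tier, against 8.04 CPM in B and T cells. Alveolar fibroblasts exceeded pericytes, and both exceeded the lower tier, beyond their intervals. The pericyte class of the cell library held 114 cells here and 449 at resolution 1, so its level and rank may depend on the clustering. Mixed clusters held 20.6% of Cxcl14 counts in cells. At 1000 UMIs, 15.6% of alveolar fibroblasts (36.5% unthinned) and 14.04% of pericytes (25.4% unthinned) had a Cxcl14 UMI, against 0.671% of B and T cells (1.92% unthinned).

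In nuclei Cxcl14 was low throughout, and alveolar fibroblasts had 7.997 and 16.1 CPM. The class above background in both replicates was a mesenchymal one led by Itgbl1, Brinp1, Nalcn, Agtr1b and Fgf10, absent from the cell library, with 22.3 and 24.9 CPM (15 and 20 counts), against 2.95 and 5.79 CPM in B and T cells. Within classes, Cxcl14 was higher in cells in 4 of 9 tested, among them pericytes (40 counts in cells, 5 and 7 in nuclei, log2 fold change 3.75, SE 0.632, edgeR adjusted p = 0.0207, and 2.99 to 4.58 against a single nucleus library) and general capillaries (2.25, adjusted p = 0.00939). In alveolar fibroblasts 373 counts in cells stood against 22 and 40 in nuclei, with a log2 fold change of 4.002 (SE 0.465) and an edgeR adjusted p of 0.176. Without the low-count filter pericytes fell short of the threshold, and DESeq2 called 2 of the 9. Several of the 9, pericytes among them, passed that filter through the cell library alone, so their direction is not independent evidence.

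Cxcl16 was highest in dendritic cells and interstitial macrophages. In cells, migratory dendritic cells had 466 CPM (386 to 558, 118 counts in 69 cells), interstitial macrophages 256 CPM, cDC1 199 CPM and cDC2, the Cd209a-type conventional dendritic cells, 131 CPM. AT1 cells, the flat epithelium of gas exchange, had 104 CPM (59 counts), the highest outside the immune lineage, and aerocytes had 50.4 CPM. B and T cells had 5.85 CPM, and 13 of 26 classes exceeded them. Pericytes had 21.3 CPM (8.57 to 43.9) from 7 counts and overlapped the lymphocytes.

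Interstitial macrophages also led in nuclei for Cxcl16, at 115 and 99.7 CPM, against 11.8 and 27.97 CPM in B and T cells, and were the class above background in both replicates. cDC1 had 56.3 and 48.3 CPM and AT1 cells 28.1 and 35.9 CPM, each above background in replicate 1. At 1000 UMIs, 20.8% of interstitial macrophages in cells had a Cxcl16 UMI (50.3% unthinned) and 9.04% and 9.66% in nuclei (30.7% and 19.3% unthinned). In B and T cells the share was 0.288% in cells (1.53% unthinned) and 1.38% and 2.82% in nuclei (3.31% and 3.87% unthinned). Within classes, Cxcl16 was higher in cells in 4 of 12 tested, with log2 fold changes of 2.34 in cDC1 (SE 0.455, edgeR adjusted p = 3.96e-06), 1.48 in interstitial macrophages (0.0310), 1.43 in aerocytes (0.0180) and 1.43 in AT1 cells (0.0199). Interstitial macrophages fell short under median-of-ratios scaling, aerocytes without the low-count filter, and DESeq2 called 1 of the 12.

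Cxcl15 was above background in a single class, far above it in the cell library only, and was still counted in every class of each library. AT2 cells, the surfactant-producing epithelium, had 3052 CPM in cells (2957 to 3150, 3909 counts, or 9.77 per cell), and no other class of the 26 exceeded the 36.2 CPM of B and T cells (0.0949 per cell). In nuclei AT2 cells had 289 and 892 CPM (1.26 and 2.20 counts per nucleus), against 139.7 and 384 CPM in B and T cells (0.392 and 0.570 per nucleus). The level in AT2 cells was 84.4 times that of lymphocytes in cells, and 2.07 and 2.32 times in nuclei. AT2 was the single class above background in each of the 3 libraries. Club nuclei, with 72.7 and 207 CPM, lay below the lymphocytes of their library on the CPM scale. They held 0.333 and 0.699 counts per nucleus, below the lymphocytes in replicate 1 and above them in replicate 2. Their median depths were 4914.5 and 3350 UMIs.

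**Figure D3:**
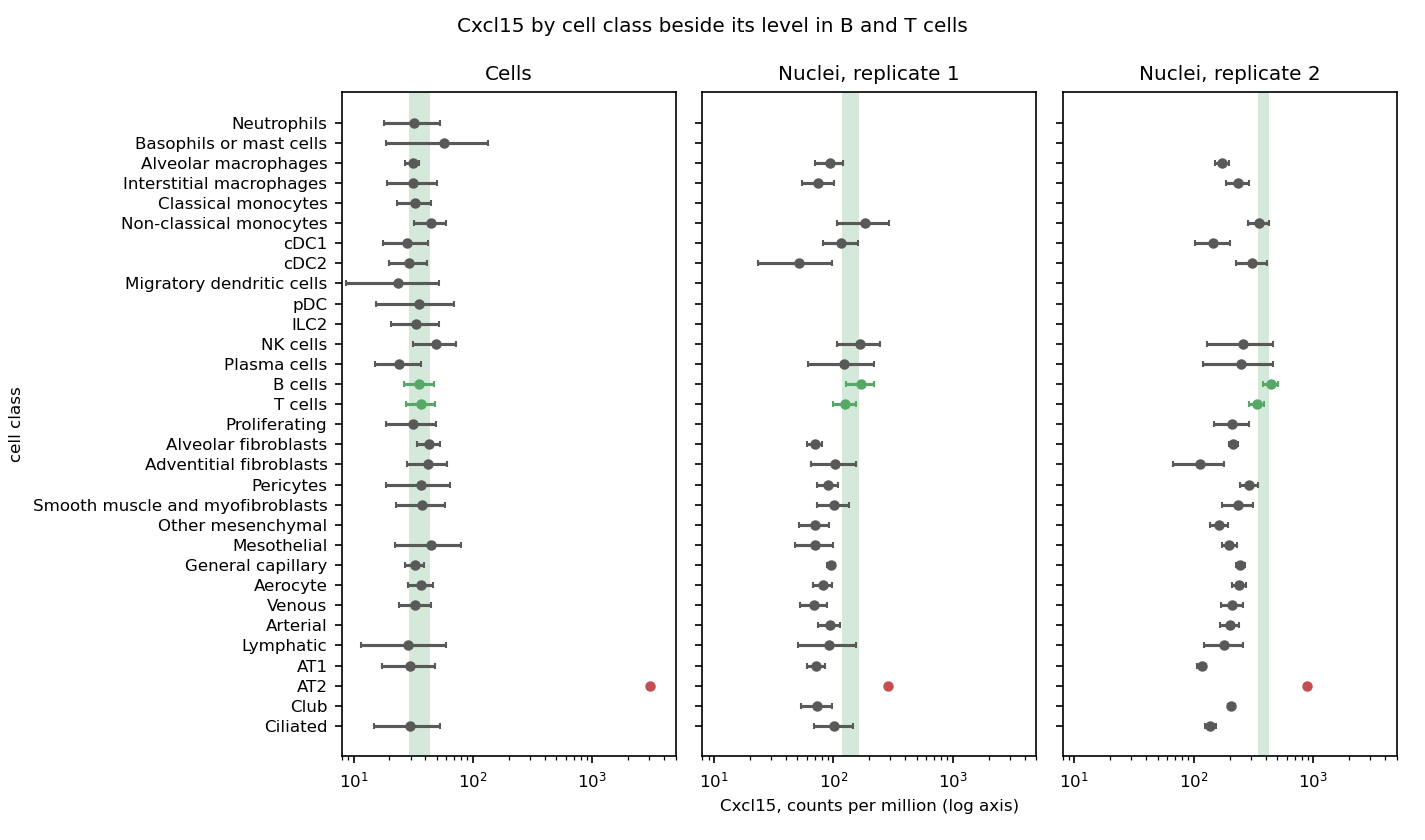
Cxcl15 CPM (log axis) by cell class in cells and in both nucleus libraries, with exact 95% Poisson intervals; AT2 cells are red, B and T cells green, and the green band is the interval of B and T cells together. AT2 cells are at 3052 CPM in cells against 36.2 CPM in B and T cells, and at 289 and 892 CPM in nuclei against 139.7 and 384 CPM.

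At 1000 UMIs, 81.0% of AT2 cells (324 of 400) had a Cxcl15 UMI, against 4.31% of B and T cells (94.8% and 9.11% unthinned). Among nuclei the shares were 23.8% and 53.2% in AT2 (60.9% and 77.0% unthinned), against 12.2% and 32.3% in B and T cells (33.1% and 43.3% unthinned). Counts of Cxcl15 per count of Sftpc, the surfactant protein C transcript of AT2 cells, were 0.0531 in AT2 cells and 0.0415 in B and T cells (0.0336 to 0.0508) in the cell library. In nuclei they were 0.0675 and 0.142 in AT2, against 0.0394 and 0.0723 in B and T cells. The ratio varied between the other classes of nuclei. In replicate 2 club nuclei had 0.0931 (0.0860 to 0.101), above the lymphocytes (0.0651 to 0.0800), while alveolar macrophages had 0.0663, general capillaries 0.0640, arterial nuclei 0.0554, non-classical monocytes 0.0531 and cDC1 0.0469. In replicate 1 interstitial macrophages had 0.0268, club nuclei 0.0354, alveolar macrophages 0.0387 and general capillaries 0.0381. The part of free RNA in these levels was not tested. Sftpc itself stood at 57447 CPM in AT2 and 871 CPM in B and T cells in the cell library, and at 4277 and 6283 CPM in AT2 and 3549 and 5312 CPM in B and T nuclei.

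Cxcl15 moved in opposite directions between cells and nuclei in AT2 and elsewhere. In AT2 it was higher in cells, with a log2 fold change of 2.45 (SE 0.533, edgeR adjusted p = 0.00140), which was 1.91 against nucleus replicate 2 alone and 3.36 against replicate 1 alone. In 11 of the other 15 classes it was lower in cells, with log2 fold changes between -2.77 in B cells (48 counts in cells, 57 and 202 in nuclei, edgeR adjusted p = 8.99e-06) and -1.59 in mesothelium (adjusted p = 0.0138). The remaining 4, pericytes, interstitial macrophages, alveolar and adventitial fibroblasts, had -2.38 to -1.17 and did not pass. Of the 11, cDC1 passed the low-count filter through nuclei alone (23 counts in cells, 37 and 36 in nuclei). The direction in cDC1 is therefore not independent evidence. Of all genes, 12.3% were called lower in alveolar macrophages, 9.02% in ciliated cells, 8.62% in aerocytes, 7.83% in T cells, 7.81% in cDC1, 7.56% in mesothelium, 7.09% in AT1, 6.43% in B cells, 5.82% in smooth muscle, 5.76% in general capillaries and 5.74% in venous endothelium. Against 1 nucleus library alone, with no test, the fold stayed below 0 in B cells (-3.37 to -2.07), venous endothelium (-2.60 to -1.12) and mesothelium, where it was -0.55 against replicate 1. DESeq2 called 5 classes lower and did not call AT2. Cxcl15 in lymphocytes, which are not known to make it, was lower in cells along with these classes, and its part in them was not tested.

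**Figure D4:**
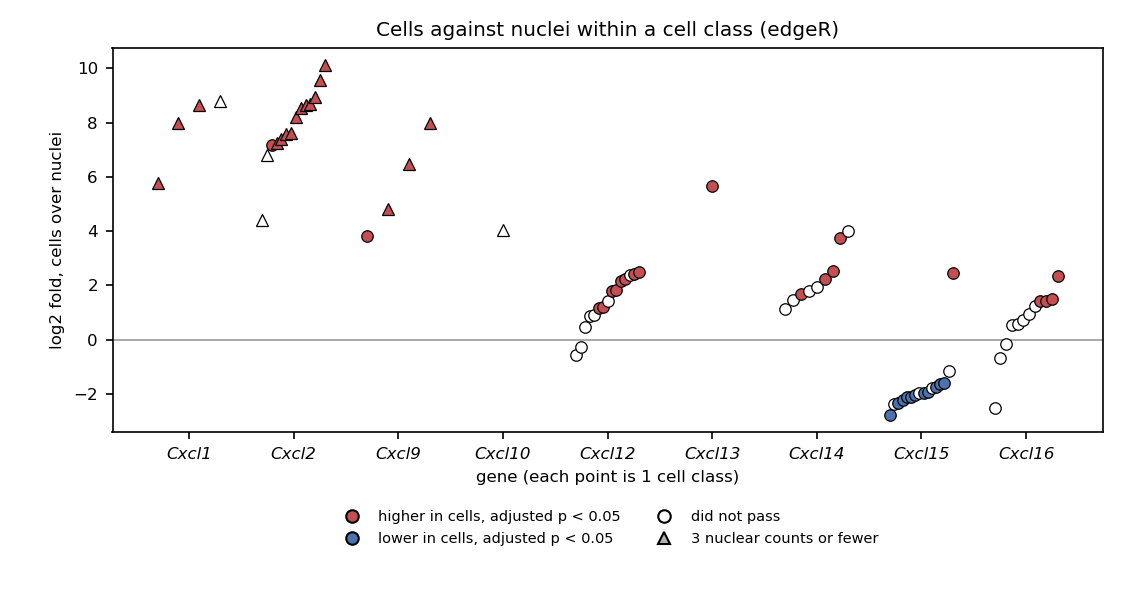
Fitted log2 fold changes, cells over nuclei, of each gene in each tested class (1 point per class). Red and blue points passed the edgeR test as higher or lower in cells, open ones did not, and triangles mark pairs with at most 3 nuclear counts, whose fitted fold depends on the prior count; Cxcl15 is the gene with blue points, 11 of them, beside its red AT2 point at 2.45.

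In all, 76 pairs of gene and class were tested, of which 37 were higher in cells, 11 were lower and 28 did not pass. Of all genes, 0% to 22.6% were called higher by class, and 5.74% to 12.3% lower in the 11 classes of Cxcl15. The 37 include 3, 12, 4 and 1 pairs of Cxcl1, Cxcl2, Cxcl9 and Cxcl13. All pairs of these genes were tested through the cell library alone, so neither their calls nor the total are independent evidence of a direction. The 11 include Cxcl15 in cDC1, which was tested through the nucleus libraries alone. Cxcl13 was tested in 1 class, Cxcl10 in 1, and no gene except Cxcl15 in all 16. Whether the fold itself differed was tested in a model over immune, endothelial, mesenchymal and epithelial sums with the library as a block. Of 17782 genes, 1.34% differed between lineages by edgeR, and 2 of the 9 chemokines did, Cxcl15 (adjusted p = 0.00889) and Cxcl12 (adjusted p = 0.0369). For Cxcl15 the epithelial log2 fold exceeded the endothelial one by 4.64 (SE 0.361, edgeR adjusted p = 0.00747, with 0.697% of all genes passing in that direction). It also exceeded the immune one (0.922% of genes) and the mesenchymal one (0.202% of genes). For Cxcl12 the mesenchymal fold exceeded the immune one by 2.19 (SE 0.281, edgeR adjusted p = 0.0435, 0.399% of genes), and the immune one lay below the epithelial one by a difference of -1.89 (SE 0.289, adjusted p = 0.0412). The other 7 had edgeR adjusted p-values of 0.176 to 0.953, so a difference between lineages was not shown for them. Lineage sums differ in their make-up of classes. Adventitial fibroblasts were 221 of 1225 mesenchymal cells, and 56 of 1300 and 51 of 1787 mesenchymal nuclei. The part of make-up in the lineage differences was not tested.

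The counts were spread over cells in different ways. Cxcl13 was concentrated in few cells. In the cell library, 8 cells with at least 10 counts, all interstitial macrophages, held 55.4% of its counts, and the highest held 38. For Cxcl9, 14 such cells held 39.0%, 6 of them cDC1. For Cxcl2, 116 held 28.5%, among them 65 alveolar macrophages, 17 interstitial macrophages and 9 neutrophils, and the highest cell held 40 counts. For Cxcl15, 181 cells held 55.6%, of which 171 were AT2 cells and 10 belonged to mixed clusters. Cxcl14 and Cxcl16 were the opposite, with 64.2% and 61.1% of counts in cells holding a single UMI.

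**Figure D5:**
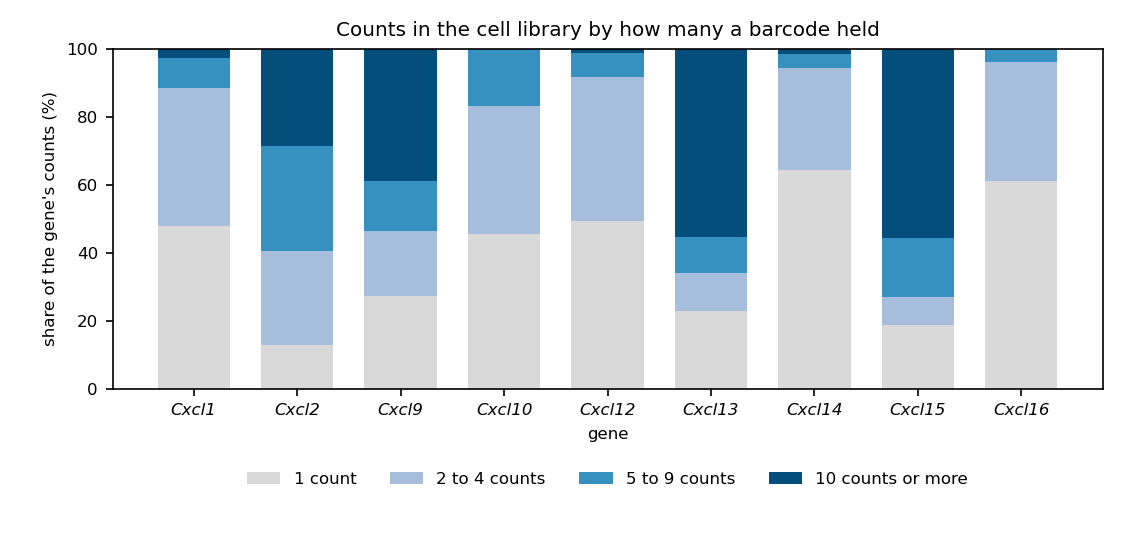
Share of each gene's counts in the cell library (%) that fell in cells holding 1, 2 to 4, 5 to 9, or 10 or more counts of it. The top segment is largest for Cxcl15 (55.6%) and Cxcl13 (55.4%), and the single-count segment is largest for Cxcl14 (64.2%).

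Cxcl1 and Cxcl2 were seen together in 126 cells, 50.2% of the cells with Cxcl1 and 6.72% of the 1875 cells with Cxcl2. Of the 198 cells with Cxcl9, 29.3% also had Cxcl2 (3.09% of the Cxcl2 cells) and 22.7% had Cxcl16 (4.65% of the Cxcl16 cells). Cxcl12 and Cxcl14 shared 179 cells, 22.02% of the Cxcl14 cells and 9.77% of the Cxcl12 cells. Over all 11934 cells, 15.7% had a Cxcl2 UMI, 15.4% Cxcl12, 8.11% Cxcl16, 6.81% Cxcl14, 2.10% Cxcl1 and 1.66% Cxcl9. Depth and shared classes move with the overlaps, and their part was not tested.

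Genes with the most similar pattern were ranked by the lower of the Pearson correlations of log2(CPM + 1) in cells and in the mean of the nucleus libraries, over 21 classes and 11133 genes. The points share their libraries and their free RNA. For Cxcl15 they were Sftpb (0.941), Sftpa1 (0.908) and Sftpc (0.898), surfactant protein genes. For Cxcl12 they were Tek (0.747), the angiopoietin receptor, Igfbp4 (0.726) and Fgd5 (0.714). For Cxcl16 they were Phactr2 (0.748), Adam23 (0.715) and Ppfia4 (0.667). The correlation of a chemokine's own levels in cells with those in nuclei was 0.725 for Cxcl15, 0.692 for Cxcl16 and 0.491 for Cxcl12, and -0.06 for Cxcl10. Cxcl1, Cxcl2, Cxcl9, Cxcl10 and Cxcl14 stayed under 20 CPM in the mean of every one of these classes of nuclei, and Cxcl13 passed it through 2 counts in plasma cell nuclei, so no matches are given for these 6.

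The receptors were higher in cells in 6 of 8 cases, with a median log2 fold change of 2.24 against -0.03 over all genes. Of all genes tested over whole libraries, 16.4% were called higher and 8.42% lower, which holds for this and the following lists. The lists were chosen with earlier results of these data known. Cxcr4, the receptor of Cxcl12, had 172 scaled CPM in cells and 5.87 and 6.73 in nuclei (log2 fold change 4.77, edgeR adjusted p = 0.00250), and within the cell library it was highest in neutrophils (488 CPM). Cxcr1 had 38 counts in cells and 0 in nuclei, at least 19.3-fold higher in cells (edgeR adjusted p = 0.0278). Cxcr1 and Cxcr3 (9 and 9 counts in nuclei) passed the low-count filter through the cell library alone, so their direction is not independent evidence. Cxcr2, the receptor of Cxcl1 and Cxcl2, reached 97.95 CPM in neutrophils, Cxcr6, the receptor of Cxcl16, 122 CPM in ILC2, and Ackr3 337 CPM in venous cells and 144 and 157 CPM in venous nuclei. Cxcr5, the receptor of Cxcl13, was seen in B cells, with 110.0 CPM in cells and 232 and 191 CPM in nuclei, and over whole libraries did not pass (1.14, edgeR adjusted p = 0.0893).

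Of 13 genes of NF-kB feedback and chemokine mRNA decay, which comprise inhibitors, RNA decay factors and the NF-kB subunits Rel, Relb, Nfkb1 and Nfkb2, 12 were higher in cells and Nfkb1 did not pass (log2 fold change 1.24, edgeR adjusted p = 0.0536), with a median of 2.44. Tnfaip3, a deubiquitinase that dampens NF-kB signalling, had 224 scaled CPM in cells and 6.28 and 5.83 in nuclei (log2 fold change 5.21, edgeR adjusted p = 0.00250), and Zfp36, which destabilises chemokine and cytokine mRNAs, had 281 in cells and 22.2 and 10.3 in nuclei (4.11, adjusted p = 0.00470). Of 14 interferon response genes, 5 were higher, 1 was lower and 8 did not pass, with a median of 0.87. Over all genes 16.4% were higher and 8.42% lower. Isg15, a ubiquitin-like modifier, had 2.96 (edgeR adjusted p = 0.00811) and Irf7, a transcription factor, 2.72 (adjusted p = 0.0106), while Ifit2 was lower in cells (-1.34, adjusted p = 0.0470).

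Of 7 genes of the lymphotoxin pathway, which induces Cxcl13 in lymphoid stroma, 4 were higher in cells, with a median of 1.69. Tnf had a log2 fold change of 5.27 (edgeR adjusted p = 0.00584) and Ltb, a lymphotoxin chain, 4.09 (adjusted p = 0.00573), and Ltb was highest in ILC2 and B cells (326 and 278 CPM in cells). Of 8 sheddases and anchors of chemokines, 1 was higher, 1 was lower and 6 did not pass, with a median of 0.18. These counts lie near the shares over all genes, 16.4% higher and 8.42% lower. Mmp9, a protease of neutrophils, had 2.74 (edgeR adjusted p = 0.0472) and Sdc1, a heparan sulfate proteoglycan, -1.30 (adjusted p = 0.0377), while Adam10, which sheds Cxcl16, had -0.08 (adjusted p = 0.881). Of 4 other CXC ligands tested, Cxcl17 was lower in cells, with 2.20 scaled CPM in cells and 8.37 and 7.77 in nuclei (-1.88, edgeR adjusted p = 0.0415), and the other 3 did not pass. Without mixed and unnamed clusters, Cxcl17 and Mmp9 fell short of the threshold.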

How the data were processed

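Raw UMI counts per gene and barcode were used as the authors deposited them, in 1 table of cells and 1 holding both nucleus libraries; per the submitters' processing notes, STAR 2.5.3a and mm10 were used. The counting program, like its treatment of introns, is not named in the sources at hand, and intronic reads would bear on nuclei more than on cells. Genes per barcode stopped at 2499 in cells and nucleus replicate 1 and at 2999 in nucleus replicate 2, an upper limit that the deposited counts carry already.

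A barcode was kept if it had 400 genes or more and its mitochondrial share was below 20%, which removed 8. Scrublet marked 10 cells and 81 and 9 nuclei as doublets, and only the 81 were removed, because under 0.5% marked was taken as a failed call. Each table was clustered without the 9 genes (scanpy 1.11.5, leidenalg 0.10.2, 2000 variable genes, 30 components, 20 neighbours, resolution 2) and named by markers that were at least 2-fold higher, in 10% of barcodes or more; the naming and mixing rules were chosen after the clusters were seen. Counts were summed per library and class and tested with edgeR 4.0.16 (trimmed-mean scaling, filterByExpr, quasi-likelihood F test, adjusted over all genes). DESeq2 1.42.0, other scaling, no filter, resolution 1, every barcode, other thinning depths and leaving out each nucleus library were alternatives. The test was checked on simulated counts.

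The members and lists were chosen with earlier results of these data known. All 9 genes are described; of the lists, the 2 largest called folds each are named, and of genes at 50 CPM or more in a class, receptors chiefly. Cxcl3, Cxcl11, Irf8 and Gbp4 were not analysed here.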

Additional observations from a re-analysis of the deposited data

Results flagged for a closer look

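The difference between cells and nuclei was not the same in all lineages for Cxcl15 and Cxcl12, by the edgeR test of the difference itself with the library as a block. For Cxcl15 the adjusted p over any pair of lineages was 0.00889. Its log2 fold in epithelial sums exceeded the endothelial one by 4.64 (adjusted p = 0.00747), a direction in which 0.697% of all genes passed. The immune fold minus the epithelial one was -4.49 (adjusted p = 0.00844, 0.922% of genes), and the mesenchymal fold minus the epithelial one was -4.16 (adjusted p = 0.0136, 0.202% of genes).

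For Cxcl12 the adjusted p over any pair was 0.0369 by edgeR. Its mesenchymal fold exceeded the immune one by 2.19 (adjusted p = 0.0435, 0.399% of genes), and the immune fold minus the epithelial one was -1.89 (adjusted p = 0.0412). This last difference fell short of the threshold without the low-count filter. For both genes the lineage sums of cells and nuclei differ in their make-up of classes, and the part of this was not tested. Levels in B and T cells, at 19.7 CPM in cells and 25.6 and 41.5 CPM in nuclei, enter the immune sum, and their part in the Cxcl12 differences was not tested.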

How the results depend on the processing

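No called result reversed its direction under any alternative run. DESeq2 called 16 pairs of gene and class higher in cells and 5 lower, against 37 and 11 by edgeR, while other scaling gave 39 and 11, no filter 39 and 11, and resolution 1 gave 44 and 14. Pairs whose share with a UMI exceeded that of lymphocytes numbered 11 and 11 in the nucleus libraries without thinning, against 4 and 6 at 1000 UMIs. The cause was not tested. Without nucleus replicate 1 or 2 the whole-library log2 folds, values with no test, ran from 3.56 to 4.86 for Cxcl10, 0.69 to 1.52 for Cxcl12 and -0.74 to 0.28 for Cxcl15. Leaving out mixed and unnamed clusters, an alternative chosen after seeing the data, made 7 of the 9 genes higher in cells over whole libraries. No paired analysis was possible because there is 1 cell library. Counts were few for Cxcl10 (147 in cells, 4 and 11 in nuclei) and, among nuclei, for Cxcl1 (6 and 4) and Cxcl2 (7 and 4), and a class of nuclei with 0 counts can hide a low level.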
